A study of Homo sapiens with 48 samples.

Results

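The AP-1 family and immediate early genes were followed as 9 of the 33892 gene rows measured, chosen by symbol: JUN, JUNB, JUND, FOS, FOSB, FOSL1, FOSL2, ATF3 and EGR1. Each symbol matched 1 row, no member shared its Ensembl identifier with another row, and all 9 passed the filter on low counts in every line. The 48 libraries hold RNA from 8 established human cell lines after 24 h in carfilzomib, which blocks the proteasome irreversibly, or in the solvent DMSO as control, with 3 biological replicates of each of the 16 groups. Colon cancer was represented by RKO and DLD-1, lung cancer by H-23 and H-1299, pancreatic cancer by PANC-1 and CAPAN-2, and multiple myeloma by H-929 and RPMI. Per the labels each line received the drug at its own IC50 for proteasome activity, so the doses of the lines need not be equal, and the concentrations were not used here. No gene was altered in any group, and each tumour type is represented by 2 lines grown in dishes. The series title names HSP70 and the molecular response to proteasome inhibition, and the question addressed here is how the AP-1 genes moved in that response.

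Total counts ran from 9.12 M to 64.4 M per library, lowest in H-929 (9.12 M to 18.9 M). In DMSO, 8 epithelial markers summed to between 4258 CPM and 15137 CPM per library in H-23, PANC-1, DLD-1 and CAPAN-2, to between 929.1 CPM and 1016 CPM in H-1299, and to between 143 CPM and 163 CPM in RKO. KRT19 was at 0 in every RKO library, and CDH1 was at 0 in the DMSO libraries of H-1299; CLDN7 has several rows and is uncertain. The 9 plasma cell markers summed to between 6265 CPM and 12310 CPM in the DMSO libraries of the myeloma lines and to between 79.0 CPM and 544 CPM in those of the other 6 lines. The 9 markers of other cell types (fibroblast, endothelial, blood and liver genes) summed to between 253 CPM and 306 CPM in DMSO and between 235 CPM and 271 CPM after carfilzomib in H-929, and to at most 18.6 CPM in any library of the other lines.

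AP-1 is a dimer of basic leucine zipper proteins. JUN, JUNB and JUND pair with each other or with FOS, FOSB, FOSL1 or FOSL2, whereas the FOS proteins do not form stable dimers among themselves; ATF3 is a related stress-induced protein that also pairs with JUN proteins. FOS, FOSB, JUN, JUNB and EGR1 are immediate early genes, transcribed within minutes of a stimulus from factors already present, such as SRF with its ELK partners and ATF2 or JUN phosphorylated by MAP kinases. Their mRNAs and proteins are short-lived, and the proteasome degrades several of the proteins, which these RNA data do not measure.

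Promoters of 8 of the 9 genes were found in RefSeq (GRCh38.p14), and 4 of them held a match to a site for these inputs in the 250 bases before the start. The 4 stretches are shown because each holds such a match, in capitals, 5′ to 3′ on the gene's strand. The JUN stretch lies at chr1:58784096-58784125 (minus strand), within the longer 5′ end that GENCODE 29 gives the gene, the JUND stretch at chr19:18281804-18281833 (minus), the ATF3 stretch at chr1:212565273-212565302 (plus, before the most upstream start of a gene with 11 annotated transcripts) and the EGR1 stretch at chr5:138465360-138465419 (plus).
JUN: aggccttggggTGACATCAtgggctatttt
JUND: ggccgcccccaTGACGTCAacccacaaggc
ATF3: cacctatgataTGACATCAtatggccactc
EGR1: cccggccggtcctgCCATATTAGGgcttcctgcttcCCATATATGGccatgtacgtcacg
The capitals in JUN and ATF3 mark TGACATCA, a variant of the CRE bound by dimers of JUN or ATF proteins, which 2.45% of 27305 promoters held on either strand. Those in JUND mark the CRE itself, TGACGTCA, held by 1.77%, and those in EGR1 mark a pair of CArG boxes, the SRF site, held by 1.14%. No member promoter held the TRE (TGACTCA or its reverse complement TGAGTCA), the CARE (TGATGCAA), the heat shock element (GAANNTTCNNGAA) or the EGR site (GCGTGGGCG or GCGGGGGCG), which 4.16%, 0.82%, 0.439% and 5.3% of all promoters held. These are letter matches within a short window, and no binding was measured. Bases further upstream and other starts of a gene, such as those of ATF3, were not searched. A gene without a match here, such as FOS, may therefore hold such a site elsewhere.

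The first comparison was that of the carfilzomib and DMSO libraries of a line, tested with edgeR (quasi-likelihood F test, threshold 0.05 on the p adjusted over all genes tested). Over the 72 pairs of a gene and a line, 42 rose, 11 fell and 19 did not pass. The myeloma lines held 17 rises and 1 fall among 18 pairs, and the 6 carcinoma lines 25 rises and 10 falls among 54. Pairs of a line share its libraries, so these totals are tallies, to be read with the shares of each line. In H-929 all 9 members rose, where 26.4% of all genes rose and 52.6% were called in either direction; in RPMI 8 rose and FOS fell, where 31.3% of genes rose, 32.2% fell and 63.4% were called. Of the lung lines, H-23 had 7 rises and a fall in JUND (17.7% of all genes higher, 16.2% lower and 33.9% called). H-1299 had 6 rises with falls in JUND and FOSL1 (29.8% higher, 31.3% lower and 61.2% called).

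Of the pancreatic lines, PANC-1 had 5 rises and a fall in JUND (20.5% of all genes higher, 18.2% lower and 38.7% called). CAPAN-2 had 5 rises with falls in JUND and FOSL2 (25.7% higher, 26.7% lower and 52.5% called). The colon lines moved least. In DLD-1, JUNB and FOSL1 rose while FOS, ATF3 and EGR1 fell (10.9% of all genes higher, 12.1% lower and 23% called). In RKO EGR1 alone was called, as a fall (8.90% called, with 3.62% of genes higher and 5.28% lower). The median log2 change of the 9 members was 2.20 in H-929 and 0.98 in RPMI, 0.62 in H-23 and 0.61 in H-1299, 0.39 in CAPAN-2, 0.27 in PANC-1, 0.15 in DLD-1 and -0.12 in RKO, while the median of all genes lay between -0.021 and 0.029 in every line. Many of these changes were small. Against a null fold change of 1.5, the counts called were 7 in H-929, 6 in H-1299, 5 in RPMI, 2 each in H-23 and CAPAN-2, 1 in PANC-1 and 0 in DLD-1 and RKO. The share of all genes that passed this null is not given here. These counts therefore describe only the size of the members' changes.

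**Figure D1:**
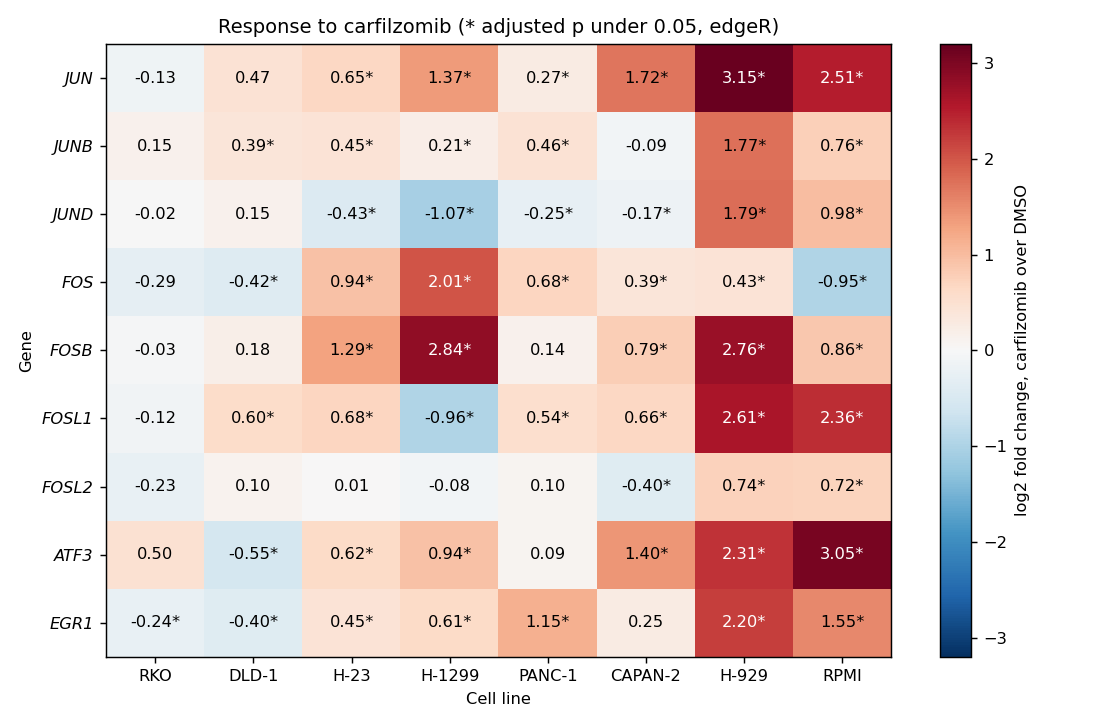
Log2 fold change of each member (rows) after carfilzomib over DMSO in each cell line (columns), from edgeR fits of the 6 libraries of each line, with stars for adjusted p under 0.05. The columns of H-929 and RPMI hold the largest rises of JUN, ATF3 and FOSL1, FOS is at -0.95 in RPMI, and the RKO column holds 1 star.

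Levels of members below are CPM, each gene's counts as a part of the library's total and scaled by TMM within a line. They are given per library or as mean ± SD of 3 libraries, and log2 fold changes are given ± SE. Sums of markers are CPM of library totals without TMM. Adjusted p-values are those of edgeR's quasi-likelihood test over all genes of the line. In these bulk libraries a larger share of expressing cells and more mRNA per cell cannot be told apart.

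JUN (chr1:58780788-58784327, minus strand; all gene positions are those of GENCODE 29 on GRCh38), the founding AP-1 subunit and a gene that its own product can activate, rose in 6 lines and was called lower in none. Its average over the 8 lines was 1.21 ± 0.039 on the log2 scale, the largest of the 9 members (adjusted p = 7.0e-29, edgeR joint fit). In H-929, JUN stood at 109, 115 and 95.3 CPM in the DMSO libraries and 874, 882 and 1083 CPM in the carfilzomib libraries. That is an 8.90-fold rise, log2 3.15 ± 0.10 (adjusted p = 2.1e-11), and every carfilzomib library was above every DMSO library. RPMI held 79.0, 67.8 and 52.8 CPM in the DMSO libraries and 364, 359 and 406 CPM in the carfilzomib libraries. There JUN rose 5.70-fold, log2 2.51 ± 0.11 (adjusted p = 4.1e-10), again without overlap.

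The largest rise of JUN among the carcinoma lines was in CAPAN-2, where it stood at 13, 14.7 and 11.6 CPM in the DMSO libraries and 48.8, 39 and 41.3 CPM in the carfilzomib libraries. The change was log2 1.72 ± 0.099 (adjusted p = 3.3e-09), from the second lowest baseline level of the gene in the study. H-1299 went from 38.5, 47.7 and 43.3 CPM in DMSO to 111, 115 and 107 CPM after carfilzomib, a change of 1.37 ± 0.070 (adjusted p = 5.0e-09). The treatments did not overlap in either line. Smaller rises followed in H-23, from 61.0 ± 1.39 CPM in DMSO to 96.1 ± 3.71 CPM after carfilzomib (log2 0.65 ± 0.042, adjusted p = 6.8e-08), and in PANC-1, from 59.97 ± 5.599 CPM in DMSO to 72.2 ± 3.58 CPM after carfilzomib (log2 0.27 ± 0.061, adjusted p = 0.0034). The PANC-1 rise missed the threshold as a contrast in the fit of all 48 libraries (adjusted p = 0.0915).

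The colon lines lay at opposite ends of JUN's range. RKO held 1319, 1275 and 1284 CPM in the DMSO libraries and 1185, 1225 and 1145 CPM in the carfilzomib libraries, the highest levels of any line, and the difference of -0.13 ± 0.037 did not pass (adjusted p = 0.0557), although the libraries did not overlap; the Wald test of DESeq2 called it lower (adjusted p = 0.0061). DLD-1 held 12.1, 14 and 10.9 CPM in the DMSO libraries and 18.1, 12.6 and 20.4 CPM in the carfilzomib libraries, which overlapped, and the difference of 0.47 ± 0.16 did not pass (adjusted p = 0.0586). Without carfilzomib replicate 2, the lowest treated library, it was 0.65 (adjusted p = 0.0078), and without DMSO replicate 2 it was 0.57 (adjusted p = 0.0482).

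**Figure D2:**
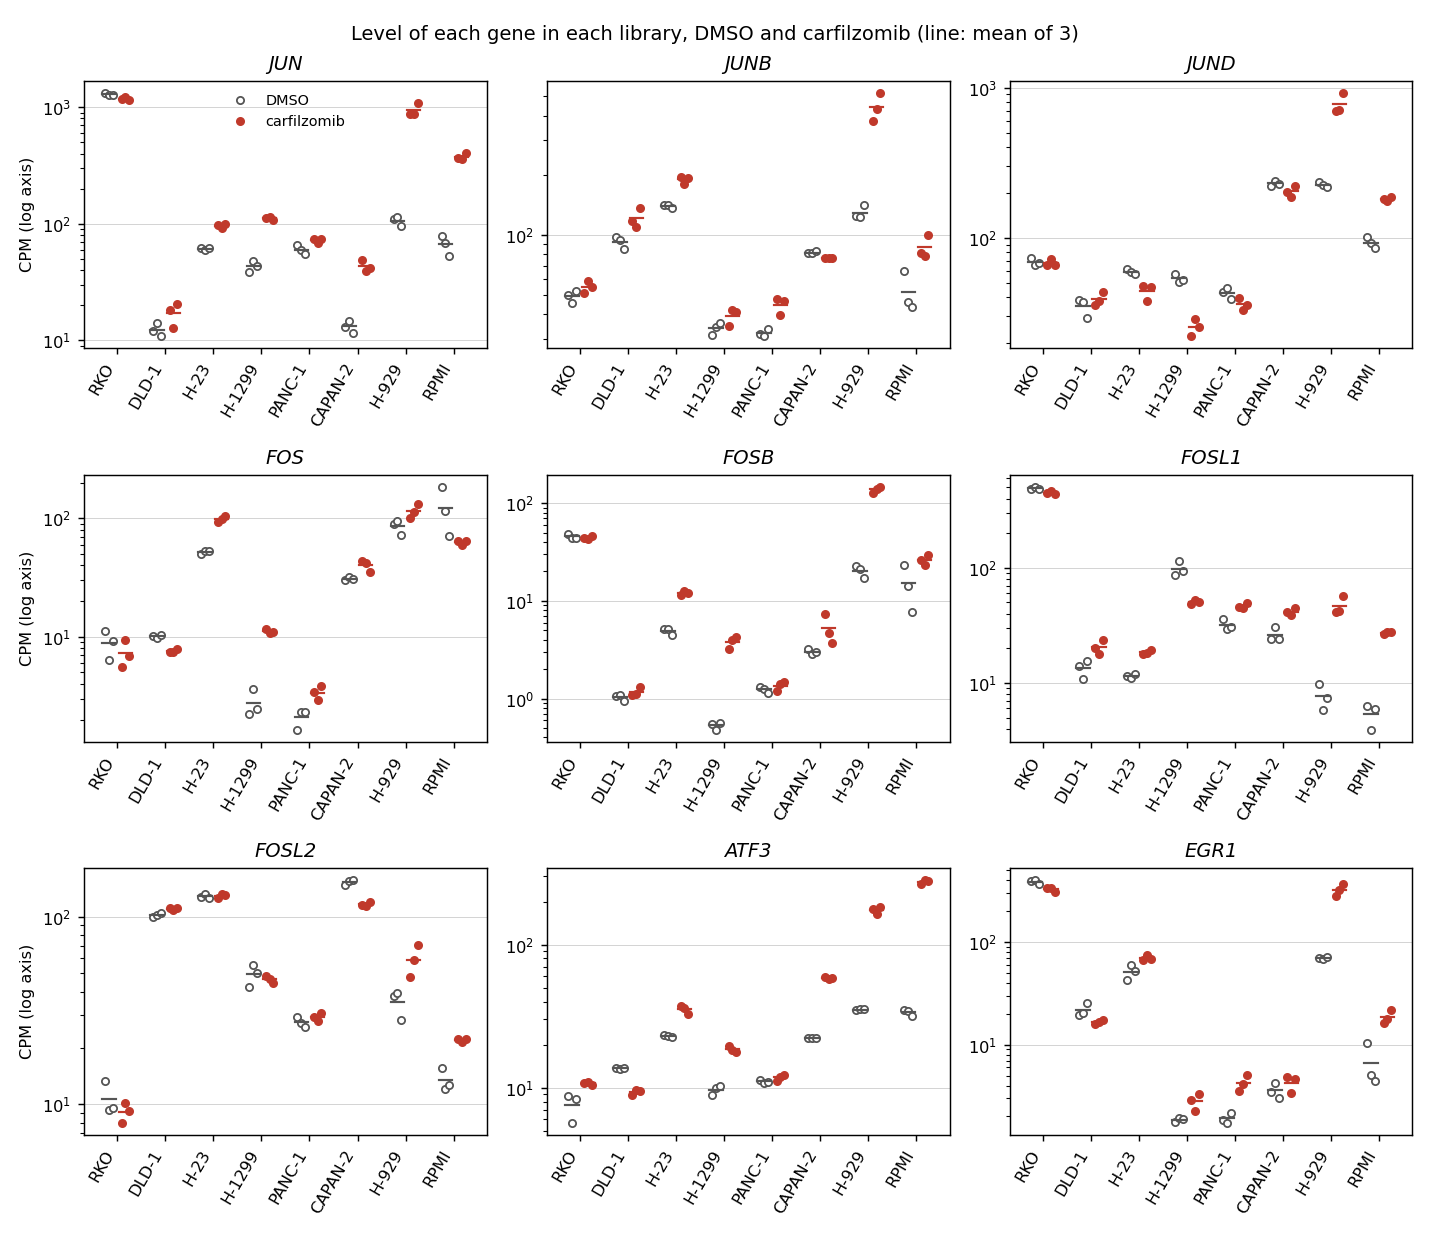
CPM (log axis) of each member in each library, 1 panel per gene, with the 8 cell lines along the x axis, open points for DMSO, filled points for carfilzomib and short lines for means of 3. JUN in H-929 goes from a mean of 106 to 946, FOSB in H-1299 from 0.53 to 3.82, and the RKO points of the treatments lie near each other for JUN, FOSB and FOSL1.

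JUNB (chr19:12791496-12793315, plus strand), a JUN relative that pairs with the same partners and can counter JUN at some promoters, rose in 6 lines and was called lower in none, with an average of 0.47 ± 0.036 (adjusted p = 2.2e-15, edgeR joint fit). H-929 again moved most, with 125, 123 and 142 CPM in the DMSO libraries and 378, 432 and 519 CPM in the carfilzomib libraries. The rise was 3.41-fold, log2 1.77 ± 0.11 (adjusted p = 1.2e-08), without overlap. In RPMI, JUNB went from 65.7, 46.1 and 43.5 CPM in DMSO to 81.6, 78.2 and 100.4 CPM after carfilzomib, a rise of 0.76 ± 0.13 (adjusted p = 1.7e-04); DMSO replicate 1 stood above the other two but below all treated libraries.

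Among the carcinoma lines the rises of JUNB lay between 0.21 and 0.46. They were 0.46 ± 0.067 in PANC-1 (adjusted p = 1.2e-04), 0.45 ± 0.040 in H-23 (adjusted p = 1.2e-06), 0.39 ± 0.081 in DLD-1 (adjusted p = 0.0064) and 0.21 ± 0.080 in H-1299 (adjusted p = 0.0372). The libraries of H-1299 overlapped, and that call was lost without DMSO replicate 1 (adjusted p = 0.15), carfilzomib replicate 2 (0.182) or carfilzomib replicate 3 (0.114), and under library totals (0.291). JUNB in CAPAN-2 held 81.7 ± 1.18 CPM in DMSO against 76.9 ± 0.163 CPM after carfilzomib, and in RKO 49.2 ± 3.44 CPM in DMSO against 54.7 ± 3.84 CPM after carfilzomib; neither passed (adjusted p = 0.187 and adjusted p = 0.254).

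JUND (chr19:18279760-18281622, minus strand), the JUN relative that is expressed more constantly and is not usually counted as an immediate early gene, moved in opposite directions in different lines: 2 rises, both in myeloma, and 4 falls. H-929 held 234, 224 and 216 CPM in the DMSO libraries and 700.2, 708 and 918 CPM in the carfilzomib libraries. The rise was log2 1.79 ± 0.099 (adjusted p = 5.6e-09), close to that of JUNB in the same line. RPMI held 100.4, 91.5 and 85.0 CPM in the DMSO libraries and 181, 175 and 187 CPM in the carfilzomib libraries, a rise of 0.98 ± 0.063 (adjusted p = 1.4e-08) with no overlap.

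The largest fall of JUND was in H-1299, from 57.5, 50.7 and 52.5 CPM in DMSO to 22.1, 28.9 and 25.5 CPM after carfilzomib, log2 -1.07 ± 0.089 (adjusted p = 3.6e-07). In H-23 it fell from 59.3 ± 2.63 CPM in DMSO to 44 ± 5.59 CPM after carfilzomib (log2 -0.43 ± 0.073, adjusted p = 4.0e-04). Neither line's treatments overlapped. PANC-1 (-0.25 ± 0.072, adjusted p = 0.0136) and CAPAN-2 (-0.17 ± 0.065, adjusted p = 0.0375) had overlapping libraries. The PANC-1 call was lost without DMSO replicate 2 (adjusted p = 0.0594) or carfilzomib replicate 2 (0.0613), and the CAPAN-2 call without DMSO replicate 1 (0.0529) or 2 (0.161) or carfilzomib replicate 1 (0.105) or 2 (0.238). Levels in DLD-1 (34.9 ± 4.98 CPM in DMSO against 38.8 ± 3.99 CPM after carfilzomib) and RKO (69.0 ± 4.18 CPM in DMSO against 68.1 ± 3.83 CPM after carfilzomib) did not pass. The average over the 8 lines was 0.079 ± 0.035 and did not pass (adjusted p = 0.0606); without H-929 it was -0.14 and passed (adjusted p = 7.6e-04), and under DESeq2's size factors it was 0.098 and passed (adjusted p = 0.0195).

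FOS (chr14:75278774-75282230, plus strand), the classical immediate early partner of JUN, rose in 5 lines and fell in 2. H-1299 held the lowest but one DMSO level and the largest rise, from 2.25, 3.63 and 2.44 CPM in DMSO to 11.7, 10.7 and 11 CPM after carfilzomib, a 4.04-fold change, log2 2.01 ± 0.17 (adjusted p = 3.7e-07). H-23 rose from 49.8, 52.7 and 52.5 CPM in DMSO to 93.6, 98.5 and 104 CPM after carfilzomib, log2 0.94 ± 0.047 (adjusted p = 7.7e-09). The treatments stood fully apart in both lung lines. PANC-1 held 1.65, 2.34 and 2.33 CPM in DMSO and 3.41, 2.91 and 3.85 CPM after carfilzomib, a rise of 0.68 ± 0.18 (adjusted p = 0.0095) at low levels, a call not made in the fit of all 48 libraries (adjusted p = 0.143), without replicate 1 (0.0637) or without replicate 3 (0.0532). CAPAN-2 held 30.9 ± 0.971 CPM in DMSO against 40.3 ± 4.31 CPM after carfilzomib (log2 0.39 ± 0.074, adjusted p = 4.8e-04).

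FOS rose least of the 9 members in H-929 and was the only one that fell in RPMI. RPMI held 185, 114 and 70.2 CPM in the DMSO libraries and 64.3, 59.7 and 64.3 CPM in the carfilzomib libraries. This was a fall, log2 -0.95 ± 0.24 (adjusted p = 0.0030), and the treated libraries lay just below the lowest DMSO library; without DMSO replicate 1 the log2 change was -0.56 (adjusted p = 0.0032). The DMSO libraries spread widely and the treated ones did not. In H-929 FOS went from 89.1, 94.7 and 72.8 CPM in DMSO to 101.4, 112 and 133 CPM after carfilzomib, a rise of 0.43 ± 0.12 (adjusted p = 0.0059), and as a contrast in the fit of all 48 libraries it was 0.27 and did not pass (adjusted p = 0.162). In DLD-1 FOS fell from 10.1, 9.86 and 10.4 CPM in DMSO to 7.44, 7.46 and 7.82 CPM after carfilzomib, log2 -0.42 ± 0.093 (adjusted p = 0.0089), also without overlap, and that contrast did not pass in the fit of all libraries (adjusted p = 0.201). RKO held 8.88 ± 2.42 CPM in DMSO against 7.26 ± 1.91 CPM after carfilzomib, which overlapped (adjusted p = 0.523). The average over the lines was 0.31 ± 0.075 (adjusted p = 5.9e-04) and was 0.069 without H-1299 (adjusted p = 0.607).

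FOSB (chr19:45467995-45475179, plus strand), an immediate early FOS relative, rose in 5 lines and was called lower in none, with an average of 1.06 ± 0.084 (adjusted p = 4.3e-15, edgeR joint fit). H-1299 held 0.548, 0.482 and 0.562 CPM in the DMSO libraries and 3.26, 3.96 and 4.26 CPM in the carfilzomib libraries. The rise was 7.14-fold, log2 2.84 ± 0.23 (adjusted p = 3.0e-07), from the lowest DMSO level of any line. H-929 held 22.8, 21.1 and 17.3 CPM in the DMSO libraries and 127, 139 and 148 CPM in the carfilzomib libraries, log2 2.76 ± 0.11 (adjusted p = 2.6e-10). The treatments did not overlap in these 2 lines, nor in H-23, where FOSB rose from 4.94 ± 0.364 CPM in DMSO to 12 ± 0.535 CPM after carfilzomib (log2 1.29 ± 0.11, adjusted p = 8.2e-07).

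Single libraries weighed on the other FOSB calls. In RPMI, FOSB stood at 23.6, 14.1 and 7.63 CPM in the DMSO libraries and 26.2, 23.5 and 29.8 CPM in the carfilzomib libraries, which overlapped, with a change of 0.86 ± 0.27 (adjusted p = 0.0128). DMSO replicate 1 of RPMI held the highest and DMSO replicate 3 the lowest DMSO value of JUN, JUNB, JUND, FOS, FOSB and EGR1. Without DMSO replicate 3 the FOSB change was 0.50 (adjusted p = 0.0273), without carfilzomib replicate 3 it did not pass (adjusted p = 0.0584), and DESeq2 did not call it (adjusted p = 0.109). CAPAN-2 held 3.23, 2.89 and 2.97 CPM in the DMSO libraries and 7.26, 4.68 and 3.74 CPM in the carfilzomib libraries, a change of 0.79 ± 0.22 (adjusted p = 0.0065) that was 0.48 without carfilzomib replicate 1 (adjusted p = 0.0677). FOSB in RKO (45.6 ± 2.83 CPM in DMSO against 44.5 ± 1.41 CPM after carfilzomib), DLD-1 (1.03 ± 0.0820 CPM in DMSO against 1.17 ± 0.116 CPM after carfilzomib) and PANC-1 (1.24 ± 0.0970 CPM in DMSO against 1.36 ± 0.153 CPM after carfilzomib) did not pass.

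FOSL1 (chr11:65892049-65900573, minus strand), which encodes FRA-1, a FOS relative common in carcinoma cells and itself an AP-1 target, rose in 6 lines and fell in H-1299. Its average was 0.75 ± 0.044 (adjusted p = 1.8e-19, edgeR joint fit). The myeloma lines had the lowest mean DMSO levels, although H-929 overlapped H-23 on the baseline scale given below, and the largest rises. H-929 held 9.76, 5.80 and 7.35 CPM in the DMSO libraries and 41.2, 42.2 and 56.5 CPM in the carfilzomib libraries, log2 2.61 ± 0.19 (adjusted p = 6.8e-08), and RPMI held 6.28, 3.93 and 5.89 CPM in the DMSO libraries and 26.7, 27.8 and 27.6 CPM in the carfilzomib libraries, log2 2.36 ± 0.14 (adjusted p = 7.1e-09). Neither line's treatments overlapped.

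The 4 carcinoma lines with a rise in FOSL1 lay close together, between 0.54 and 0.68. They were H-23 (0.68 ± 0.078, adjusted p = 1.2e-05), CAPAN-2 (0.66 ± 0.088, adjusted p = 1.8e-05), DLD-1 (0.60 ± 0.13, adjusted p = 0.0092) and PANC-1 (0.54 ± 0.071, adjusted p = 5.9e-05). H-1299 went the other way, from 87.1, 114 and 94.3 CPM in DMSO to 48.4, 52.4 and 50.9 CPM after carfilzomib, a fall, log2 -0.96 ± 0.085 (adjusted p = 6.3e-07), with no overlap, while FOS and FOSB rose in the same libraries. RKO held 483, 507 and 482 CPM in the DMSO libraries and 445, 469.5 and 439 CPM in the carfilzomib libraries; these did not overlap, and the difference of -0.12 ± 0.042 did not pass (adjusted p = 0.0953), although DESeq2 called it lower (adjusted p = 0.0339).

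FOSL2 (chr2:28392448-28417312, plus strand), which encodes FRA-2, was the member called in the fewest lines. It rose in H-929 from 38, 39.4 and 28.3 CPM in DMSO to 47.9, 58.6 and 70.9 CPM after carfilzomib (log2 0.74 ± 0.15, adjusted p = 8.7e-04) and in RPMI from 15.6, 12 and 12.6 CPM in DMSO to 22.2, 21.6 and 22.3 CPM after carfilzomib (log2 0.72 ± 0.11, adjusted p = 4.4e-05). It fell in CAPAN-2 from 148, 156 and 157 CPM in DMSO to 115, 115 and 119.7 CPM after carfilzomib (log2 -0.40 ± 0.053, adjusted p = 1.8e-05). None of the 3 lines overlapped between treatments. The other 5 lines had differences between -0.23 ± 0.18 in RKO and 0.10 ± 0.043 in DLD-1, none of which passed; in H-1299, leaving out DMSO replicate 1 gave -0.19 (adjusted p = 0.0357). The average was 0.081 ± 0.036 (adjusted p = 0.0671); it passed under DESeq2's size factors (0.10, adjusted p = 0.0243) and was -0.0051 without RPMI.

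ATF3 (chr1:212565334-212620777, plus strand) is induced by the integrated stress response and by other stresses. It rose in 5 lines and fell in DLD-1, with an average of 1.00 ± 0.025 (adjusted p = 1.1e-32, edgeR joint fit), the smallest p of the 9. RPMI held 34.8, 34.3 and 31.5 CPM in the DMSO libraries and 267, 282 and 278 CPM in the carfilzomib libraries. The rise was 8.26-fold, log2 3.05 ± 0.060 (adjusted p = 6.6e-13), the largest change of any member in RPMI. H-929 held 34.7, 35.4 and 35.2 CPM in the DMSO libraries and 178, 163 and 183 CPM in the carfilzomib libraries, log2 2.31 ± 0.086 (adjusted p = 9.6e-11).

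Among the carcinoma lines CAPAN-2 moved most, from 22.1, 22.4 and 22.2 CPM in DMSO to 59.7, 57.7 and 58.8 CPM after carfilzomib, log2 1.40 ± 0.057 (adjusted p = 1.4e-10). H-1299 followed, from 9.68 ± 0.683 CPM in DMSO to 18.6 ± 0.990 CPM after carfilzomib (log2 0.94 ± 0.092, adjusted p = 1.5e-06), and H-23, from 23 ± 0.387 CPM in DMSO to 35.3 ± 2.39 CPM after carfilzomib (log2 0.62 ± 0.060, adjusted p = 3.0e-06). None of these overlapped. DLD-1 held 13.8, 13.5 and 13.7 CPM in the DMSO libraries and 8.87, 9.68 and 9.44 CPM in the carfilzomib libraries, a fall, log2 -0.55 ± 0.084 (adjusted p = 0.0010), with no overlap. RKO held 8.81, 5.66 and 8.27 CPM in the DMSO libraries and 10.8, 10.9 and 10.5 CPM in the carfilzomib libraries, also apart, and its difference of 0.50 ± 0.19 did not pass on the line's own libraries (adjusted p = 0.123) but passed as a contrast in the fit of all 48 (0.49, adjusted p = 5.6e-04). PANC-1 held 11.1 ± 0.292 CPM in DMSO against 11.8 ± 0.569 CPM after carfilzomib and did not pass (adjusted p = 0.399).

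EGR1 (chr5:138465490-138469315, plus strand) encodes a zinc finger factor outside AP-1 and is a common readout of SRF and ERK input. It rose in 5 lines and fell in both colon lines, with an average of 0.66 ± 0.062 (adjusted p = 9.2e-13, edgeR joint fit). H-929 held 70.1, 68.7 and 70.7 CPM in the DMSO libraries and 281, 319 and 365 CPM in the carfilzomib libraries, a 4.61-fold rise, log2 2.20 ± 0.096 (adjusted p = 4.1e-10). RPMI held 10.4, 5.10 and 4.40 CPM in the DMSO libraries and 16.4, 17.7 and 21.8 CPM in the carfilzomib libraries, log2 1.55 ± 0.25 (adjusted p = 8.9e-05). Neither line's treatments overlapped.

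In PANC-1 EGR1 rose from 1.83, 1.73 and 2.18 CPM in DMSO to 3.57, 4.11 and 5.09 CPM after carfilzomib, log2 1.15 ± 0.17 (adjusted p = 1.7e-04), the largest change of any member in that line. H-1299 (0.61 ± 0.21, adjusted p = 0.0218) and H-23 (0.45 ± 0.085, adjusted p = 0.0010) rose less. The H-1299 call was lost without DMSO replicate 1 (adjusted p = 0.0656), carfilzomib replicate 1 (0.0662) or carfilzomib replicate 3 (0.0855), and under library totals (0.0525). EGR1 fell in DLD-1 from 19.6, 20.2 and 25.6 CPM in DMSO to 15.9, 16.4 and 17.3 CPM after carfilzomib (log2 -0.40 ± 0.10, adjusted p = 0.0172), a call lost without carfilzomib replicate 1 (0.0785) or 2 (0.0619). In RKO it fell from 387, 398 and 369 CPM in DMSO to 333, 337 and 308 CPM after carfilzomib (log2 -0.24 ± 0.047, adjusted p = 0.0074), the 1 call among the members in that line, and that call was not made as a contrast in the fit of all 48 libraries (adjusted p = 0.234). CAPAN-2 held 3.58 ± 0.622 CPM in DMSO against 4.25 ± 0.786 CPM after carfilzomib and did not pass (adjusted p = 0.291).

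The average effect over lines was called for 7 of 9 members, all higher, against 43.7% of all genes called and 19.8% called higher. That test takes its error from replicates of a line. With the 8 lines as units, limma called 0 of 9 members, while 6 had an unadjusted p under 0.05 (JUN, adjusted p = 0.0906, was nearest), and 57 genes higher and 45 lower of 11622 were called at all. The response differed between lines for 9 of 9 members (67.7% of all genes), with the F statistic of edgeR's test with 7 degrees of freedom highest for ATF3 (287) and JUN (108) and lowest for FOSL2 (12.8).

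A further comparison asked how the make-up of each family shifted, on the scale of CPM per kilobase of exon, as shares of the summed JUN family (JUN, JUNB, JUND) or FOS family (FOS, FOSB, FOSL1, FOSL2) mRNA. The length of a gene here is that of all its annotated exons, so the order of genes within a pool depends on that choice. No test was run on these shares. JUN's share went from 20.4% ± 2.06 to 47.2% ± 2.74 in H-1299, and the 3 libraries of each treatment did not overlap. In RPMI it went from 19.3% ± 1.48 to 42.3% ± 0.320, and in H-929 from 13.5% ± 1.26 to 28.9% ± 0.766. JUND gave up share in each of these lines, from 48.3% to 20.5% in H-1299, from 51.5% to 38.8% in RPMI and from 54.3% to 44.9% in H-929.

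The size of the JUN family pool moved very differently. In H-929 it went from 222 ± 2.27 to 927 ± 137 CPM per kb and in RPMI from 96.8 ± 14.2 to 251 ± 17 CPM per kb. In H-1299 it went from 59.6 ± 0.681 to 66.6 ± 4.19 CPM per kb, where JUN rose and JUND fell within a pool of similar size. CAPAN-2 kept JUND as its main JUN mRNA (71.7% and 66.7%) while JUN went from 2.15% ± 0.221 to 7.43% ± 0.864. RKO was the only line in which JUN made up most of the pool in DMSO, at 85.1%, and it held 83.4% after carfilzomib; DLD-1 and H-23 were mostly JUNB in both treatments (69.7% and 72.2%, 61.1% and 67.4%).

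In the FOS family, FOS took a smaller share after carfilzomib in both myeloma lines. The pool itself went from 39.1 ± 4.86 to 93.5 ± 12.7 CPM per kb in H-929, where FOS mRNA also rose, and from 45.4 ± 19.7 to 41.7 ± 1.27 CPM per kb in RPMI. FOS went from 82.6% ± 4.36 to 46.4% ± 0.920 in RPMI while FOSL1 went from 7.06% ± 3.57 to 34.8% ± 1.41. In H-929 FOS went from 67.6% ± 2.48 to 38.2% ± 0.303 while FOSB went from 9.39% ± 0.317 to 26.7% ± 1.73 and FOSL1 from 10.4% ± 2.67 to 26.3% ± 1.55. No share listed overlapped between treatments in these lines. In H-1299 FOSL1 went from 86.9% ± 0.491 to 71.6% ± 1.37 and FOS from 1.41% ± 0.176 to 9.18% ± 0.599, in a pool that went from 60.1 ± 8.57 to 37.4 ± 0.841 CPM per kb. FOSL1 stayed at 95.4% of the pool in both treatments of RKO and was the main FOS mRNA of PANC-1 (78.3% and 82.1%). FOSL2, the main FOS mRNA of DLD-1, H-23 and CAPAN-2 in DMSO (58.0%, 44% and 47.3%), held 53.7%, 29.9% and 31.5% after carfilzomib.

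**Figure D3:**
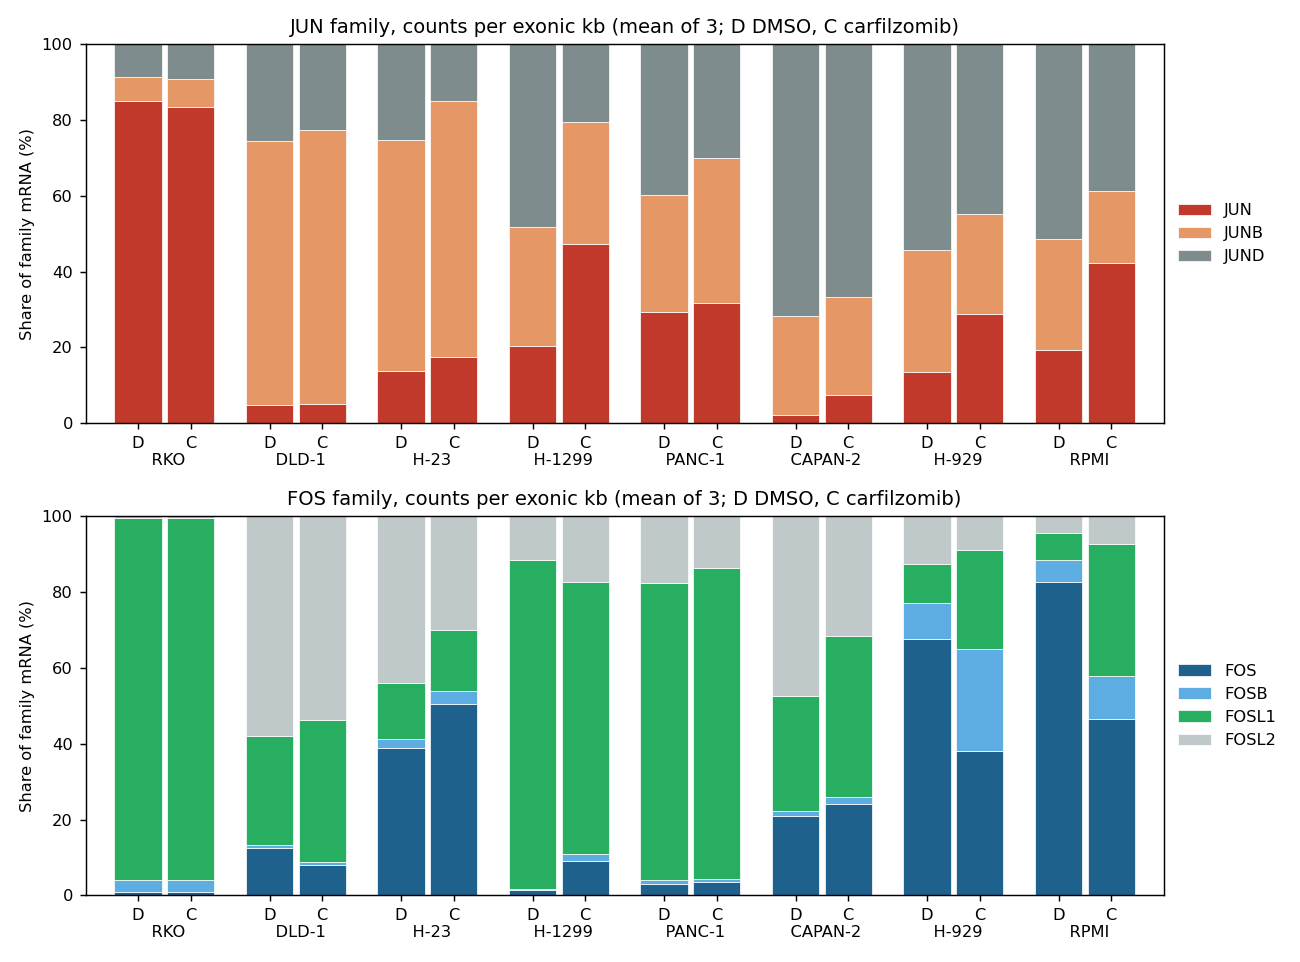
Share (%) of JUN family (upper panel) and FOS family (lower panel) mRNA contributed by each gene, from CPM per exonic kb, mean of 3 libraries, for DMSO (D) and carfilzomib (C) in each cell line. JUN's part grows from 20.4% to 47.2% in H-1299 and from 19.3% to 42.3% in RPMI, FOS shrinks from 82.6% to 46.4% in RPMI, and the RKO bars are nearly the same.

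Baseline levels were compared in the 24 DMSO libraries, as CPM per exonic kb scaled over those libraries, a scale that differs from the CPM above. All 9 members differed between lines by edgeR's test with 7 degrees of freedom, as did 98.8% of all genes. RKO had the highest JUN (324 ± 5.55), FOSL1 (231 ± 6.24), EGR1 (109 ± 2.98) and FOSB (7.29 ± 0.404), each without overlap with the next line. It also had the lowest FOSL2 (1.33 ± 0.272) and ATF3 (1.67 ± 0.374). JUN followed the order RKO, H-929 (33.1 ± 3.27), RPMI (21 ± 3.91), PANC-1 (16.2 ± 1.49), H-23 (15.4 ± 0.459), H-1299 (13 ± 1.34), CAPAN-2 (3.93 ± 0.476) and DLD-1 (3.31 ± 0.446). The libraries of RPMI and PANC-1, of PANC-1 and H-23, and of CAPAN-2 and DLD-1 overlapped, so the order of these neighbours is not settled. No test of single pairs of lines was run.

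H-929 had the highest JUNB (78.8 ± 5.97), ahead of H-23 (68.9 ± 0.572) without overlap, and PANC-1 had the lowest (16.9 ± 0.828). JUND was highest in H-929 (133 ± 5.40) and CAPAN-2 (131 ± 5.66), which overlapped, and lowest in DLD-1 (17.9 ± 2.78). ATF3 was likewise highest in the myeloma lines, with overlapping libraries in H-929 (9.59 ± 0.144) and RPMI (9.30 ± 0.391), and covered a 5.76-fold range from the lowest to the highest line. FOSL2 was highest in CAPAN-2 (22.8 ± 0.813), followed by H-23 (16.1 ± 0.307) and DLD-1 (13.7 ± 0.149) without overlap.

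FOS was highest in RPMI (42.4 ± 19.5) and H-929 (29.2 ± 4.06), which overlapped, then in H-23 (14.3 ± 0.488) and CAPAN-2 (10.1 ± 0.346), and lowest in PANC-1 (0.623 ± 0.117). FOSB followed RKO with H-929 (4.06 ± 0.570) and RPMI (3.04 ± 1.58), which overlapped, and was lowest in H-1299 (0.102 ± 0.00862). FOSL1 was at its lowest in RPMI (3.19 ± 0.749) and H-929 (4.47 ± 1.15), which overlapped. H-929 also overlapped H-23 (5.44 ± 0.302), and H-1299 was second highest (55.5 ± 7.70). EGR1 covered the widest range, 186-fold between RKO and PANC-1 (0.584 ± 0.0751), and PANC-1 overlapped H-1299 (0.627 ± 0.0302). JUN covered 97.9-fold, FOSL1 72.4-fold and FOSB 71.7-fold, against 4.65-fold for JUNB.

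**Figure D4:**
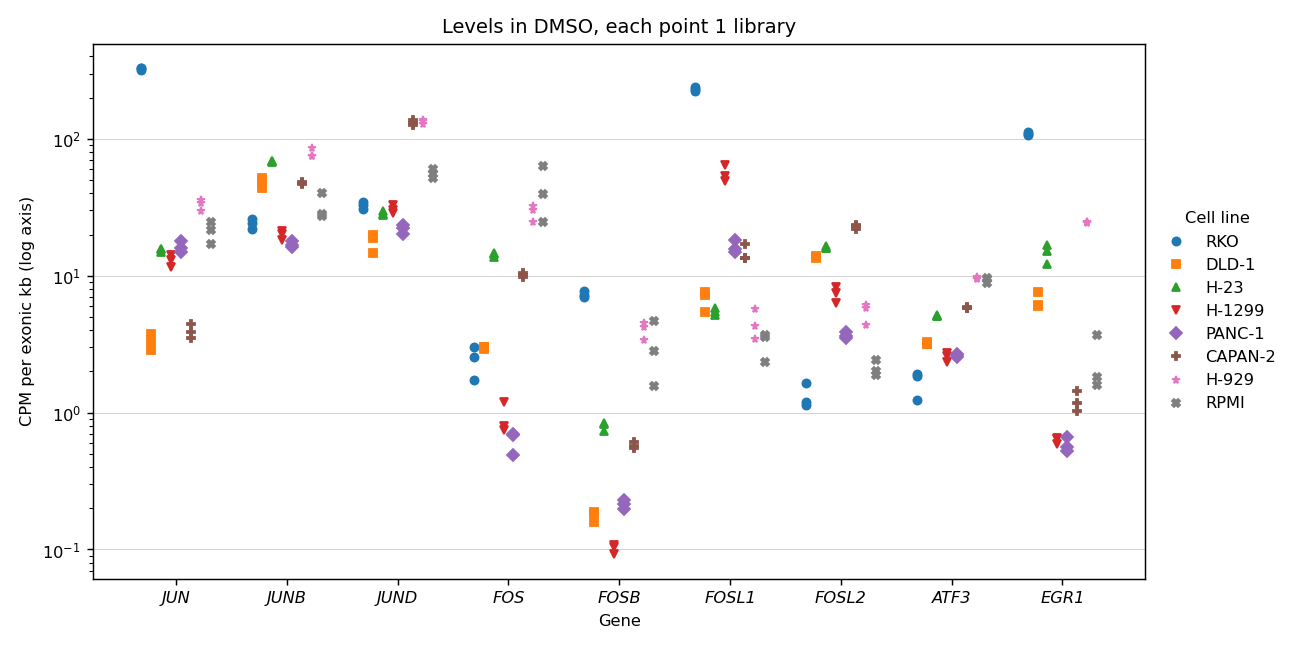
Level of each member in DMSO, in CPM per exonic kb (log axis), with 1 point per library and a symbol and colour per cell line. RKO stands apart at the top for JUN (324), FOSL1 (231) and EGR1 (109), while JUNB stays within a narrow band.

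Responses of the 2 lines of a tumour type were then set against each other, and the myeloma lines against the carcinoma lines, as contrasts in the fit of all 48 libraries, whose scaling differs slightly from that of the fits per line. Between the colon lines 3 of 9 members differed, 1 upward and 2 downward in RKO relative to DLD-1 (4.04% of all genes, 1.80% and 2.24% by direction). The responses of JUN and FOSL1 were lower in RKO than in DLD-1, with log2 differences of -0.58 ± 0.17 (adjusted p = 0.0313) and -0.70 ± 0.16 (adjusted p = 0.0049). That of ATF3 was higher in RKO by 1.05 ± 0.12 (adjusted p = 6.8e-08). The JUN and FOSL1 differences did not pass without replicate 1 or without replicate 3 of every group.

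Between the lung lines 6 members differed (30.8% of all genes). H-1299 exceeded H-23 in the response of FOSB by 1.49 ± 0.34, of FOS by 1.05 ± 0.28, of JUN by 0.67 ± 0.15 and of ATF3 by 0.28 ± 0.094. The responses of FOSL1 and JUND were lower in H-1299, with differences of -1.69 ± 0.16 and -0.68 ± 0.14. Adjusted p-values of the 6 lay between 2.3e-11 (FOSL1) and 0.0181 (ATF3). The ATF3 difference did not pass with the replicate block (adjusted p = 0.0514), without replicate 1 (0.305) or without replicate 3 (0.0524). FOSL1 is the member that rose in H-23 and fell in H-1299.

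Between the pancreatic lines 5 differed (24.9% of all genes). CAPAN-2 exceeded PANC-1 in JUN by 1.49 ± 0.16 and in ATF3 by 1.33 ± 0.097. Its responses of JUNB (-0.53 ± 0.15), FOSL2 (-0.47 ± 0.13) and EGR1 (-0.85 ± 0.31) were lower. Adjusted p-values of the 5 lay between 7.1e-15 (ATF3) and 0.0415 (EGR1). The EGR1 difference did not pass without replicate 2 (adjusted p = 0.459) or without replicate 3 (0.0556), and the FOSL2 difference did not without replicate 2 (0.0512).

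Between the myeloma lines 6 differed (40.5% of all genes). H-929 exceeded RPMI in FOSB by 1.81 ± 0.25, FOS by 1.30 ± 0.23, JUNB by 0.92 ± 0.14, JUND by 0.72 ± 0.13 and JUN by 0.55 ± 0.15. The ATF3 response was lower in H-929, with a difference of -0.81 ± 0.088. Adjusted p-values of the 6 lay between 1.7e-10 (ATF3) and 0.0020 (JUN). The EGR1 difference of 0.50 ± 0.21 missed the threshold by edgeR (adjusted p = 0.0525) and passed under DESeq2's size factors (0.0276), and JUN did not pass without replicate 1 (0.0571).

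The mean response of the 2 myeloma lines differed from that of the 6 carcinoma lines for 9 of 9 members, against 44.3% of all genes. It was higher for FOSL1 by 2.15 ± 0.12, ATF3 by 2.07 ± 0.054, JUN by 2.00 ± 0.088, JUND by 1.57 ± 0.078 and EGR1 by 1.501 ± 0.13. Smaller differences were those of JUNB (0.90 ± 0.083), FOSB (0.83 ± 0.16) and FOSL2 (0.71 ± 0.087). For FOS alone the mean of the myeloma lines was lower, with a difference of -0.92 ± 0.15, but these 2 lines moved in opposite directions. On each line's own libraries the log2 change of FOS was 0.43 in H-929 and -0.95 in RPMI. Among the carcinoma lines it ran from -0.42 in DLD-1 to 2.01 in H-1299. Adjusted p-values of the 9 lay between 2.6e-31 (ATF3) and 3.1e-05 (FOSB). The error of this contrast is the spread between replicates, so it describes these 8 lines and not myeloma and carcinoma lines at large.

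Other measures moved in the same libraries. The summed plasma cell markers went from between 11805 CPM and 12310 CPM to between 6173 CPM and 6806 CPM in H-929, with 9 of 9 called lower, and from between 6265 CPM and 7218 CPM to between 1792 CPM and 2146 CPM in RPMI, with 8 called lower and 1 higher. None of the 9 was at 0 in either line. In H-1299 the epithelial markers went from between 929.1 CPM and 1016 CPM to between 340 CPM and 368 CPM, with 3 of 3 tested called lower. In H-929 they went from between 43.02 CPM and 54.5 CPM to between 94.2 CPM and 100.04 CPM, with 2 of 3 tested called higher (KRT8, log2 2.14, and KRT18, 0.97) and 2 of the 8 at 0. In DLD-1 they went from between 8786 CPM and 9818 CPM to between 11305 CPM and 11627 CPM, and in CAPAN-2 from between 14665 CPM and 15137 CPM to between 12604 CPM and 12834 CPM. CDH1, the cadherin of epithelial junctions, fell in all 5 lines in which it was tested. The keratin markers were mixed. KRT19 rose in all 4 lines in which it was tested. Of the 8 lines, KRT18 rose in 5 and fell in 2, and KRT8 rose in 4 and fell in 2. Of the markers of other cell types, COL1A1 (log2 3.04) and CD14 (2.90) were called higher and PECAM1 (-0.26) lower in H-929, of 6 tested. The part of these shifts in the members' values was not tested.

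Across the 8 lines the responses of the 8 members other than FOS were all positively correlated, with Pearson's r between 0.11 (FOSB with FOSL1) and 0.92 (JUND with FOSL1) over 28 pairs. FOS correlated negatively with 6 of the other 8, down to -0.59 with JUND, and positively with FOSB (0.62) and EGR1 (0.051). These 8 points share libraries and normalization, and H-929 and RPMI lie at the far end for most members, so the values only describe the pattern.

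For each member the 2 genes with the highest Pearson's r between their 8 log2 changes and its own, among 11176 candidates, are named. They were USP35 (0.99) and SNORD63 (0.98) for JUN, VSNL1 (0.99) and PTGES2-AS1 (0.98) for JUNB, and MAMSTR (0.99) and RABL2A (0.98) for JUND. For the FOS family they were RAB3GAP2 (0.97) and TEAD1 (0.96) for FOS, ACVR2A (0.97) and CDC34 (0.95) for FOSB, C18orf32 (0.99) and PARP16 (0.98) for FOSL1, and PHACTR1 (0.97) and EIF2AK3-DT (0.97) for FOSL2. AP4S1 (0.98) and CCSER2 (0.96) were nearest to ATF3, and MSX1 (0.96) and WDR74 (0.94) to EGR1. No member was the nearest match of another. Each is the highest of many values of r over 8 points, so these values are high by selection. Pearson's r also ignores the size of changes. Those of RAB3GAP2 ran from -0.29 to 0.39, against -0.95 to 2.01 for FOS.

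The lists that follow are to be read against the shares of all genes tested that were called higher and lower. The myeloma lines had 26.4% higher with 26.2% lower (H-929) and 31.3% with 32.2% (RPMI), and the lung lines 29.8% with 31.3% (H-1299) and 17.7% with 16.2% (H-23). The pancreatic lines had 25.7% with 26.7% (CAPAN-2) and 20.5% with 18.2% (PANC-1), and the colon lines 10.9% with 12.1% (DLD-1) and 3.62% with 5.28% (RKO).

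Of 27 other immediate early genes, 20 rose and 1 fell of 26 tested in H-929, and 1 rose and 3 fell of 25 in RKO. In RPMI 14 rose and 3 fell of 22, in H-23 18 and 2 of 26, in H-1299 13 and 6 of 22, in CAPAN-2 13 and 4 of 24, in PANC-1 12 and 1 of 21, and in DLD-1 4 and 1 of 25. The list's median log2 change was 0.51 in H-23, 0.54 in H-1299, 1.11 in RPMI and 1.70 in H-929, and lay between -0.060 and 0.29 in the other 4 lines. GEM, a small GTP-binding protein, rose in 7 lines, with a log2 change of up to 3.28 in RPMI. SGK1, a kinase of the stress and insulin responses, rose in 6 (up to 3.64 in RPMI) and fell in CAPAN-2. DUSP1, a phosphatase of MAP kinases, rose in 6 (up to 2.55 in H-929).

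Of 22 other bZIP proteins that can pair with AP-1 members or share their sites, 13 rose and 3 fell of 20 tested in RPMI, 10 and 1 of 21 in CAPAN-2, 9 and 4 of 18 in H-1299 and 8 and 4 of 20 in H-23. In H-929, 6 rose and 4 fell of 20, near the shares of all genes, with a median of 0.016. PANC-1 had 6 and 7 of 18, DLD-1 3 and 8 of 20 and RKO 0 and 2 of 19. MAFG, a small MAF protein, rose in 7 lines (up to 1.23 in RPMI), and MAFF, its relative, in 6 (up to 1.69 in RPMI). DDIT3 (CHOP), a target of the integrated stress response, rose in 6, by 3.28 in RPMI and 3.24 in H-929, and fell by 0.69 in DLD-1, where ATF3 also fell.

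Genes that carry the input moved in both directions, as genes at large did in every line. Of 26 MAP kinase and SRF genes, the median change lay between -0.24 (H-929) and 0.082 (CAPAN-2), with 2 rises and 10 falls of 25 tested in H-929, 7 and 12 of 25 in RPMI, 10 and 7 of 25 in H-1299, 9 and 7 of 25 in CAPAN-2 and 2 and 0 of 23 in RKO. DLD-1 had 5 and 5, H-23 5 and 4 and PANC-1 7 and 5, each of 25. Those of H-23 were near the shares of all genes (17.7% higher and 16.2% lower). Single genes of this list moved far, from -4.72 for MAP2K6 in RPMI to 2.30 for MAPK10 in H-929, both chosen here as the extremes after their values were seen. MRTFB, a coactivator of SRF, fell in 6 lines (down to -0.49 in H-1299). MAP2K1 (MEK1) rose in 5 (up to 0.85 in H-1299) and fell in H-929, and MAP3K5 (ASK1), a stress-activated MAP3 kinase, fell in 4 (down to -1.04 in H-929) and rose in PANC-1.

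Some of the listed MAP kinase feedback inhibitors are genes that ERK signalling induces, and the list as a whole is not a measure of ERK activity. Of the 15, 10 rose and 0 fell of 13 tested in H-23 and 10 rose and 1 fell of 12 in PANC-1, whereas 2 rose and 9 fell of 12 in H-1299 (median -0.71), 2 and 6 of 13 in CAPAN-2, 4 and 5 of 13 in H-929 and 1 and 5 of 11 in RPMI. DLD-1 had 4 and 1 of 13 and RKO 0 and 0 of 13. DUSP1 is in this list too. SPRY1, an inhibitor of receptor signalling, fell in 5 lines (down to -2.07 in RPMI), and DUSP7, an ERK phosphatase, fell in 4 (down to -1.06 in CAPAN-2) and rose in 1.

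Of 21 genes known as AP-1 targets, 14 rose and 0 fell of 19 tested in H-23, 10 and 1 of 13 in RPMI (median 1.19), 8 and 1 of 14 in DLD-1 and 8 and 1 of 15 in PANC-1. CAPAN-2 had 7 and 6 of 18, H-1299 5 and 8 of 16, H-929 3 and 3 of 11 and RKO 0 and 2 of 13. CXCL8, the chemokine interleukin-8, rose in all 6 lines in which it was tested, by 5.39 in RPMI, 2.18 in H-929 and 1.67 in CAPAN-2. PLAUR, the urokinase receptor, rose in 6 (up to 1.75 in RPMI) and fell in RKO.

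Of 15 regulators of mRNA decay and JUN turnover, medians lay between -0.22 (H-929) and 0.19 (H-1299). The rises and falls, each of 15 tested and in RPMI near the shares of all genes, were 9 and 4 in H-1299, 7 and 4 in CAPAN-2, 5 and 3 in PANC-1, 4 and 2 in H-23, 4 and 5 in RPMI, 4 and 7 in H-929, 0 and 5 in DLD-1 and 0 and 1 in RKO. ZFP36, which destabilizes AU-rich mRNAs and is itself an immediate early gene, rose in 6 lines (up to 1.47 in H-929). COP1, a ubiquitin ligase that targets JUN, rose in 6 (up to 0.66 in H-929), and TIA1, an RNA-binding protein of stress granules, fell in 6 (down to -0.45 in PANC-1).

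Some members overlap genes on the opposite strand, and the use of strand in counting is not given in the sources used here, so reads of such pairs may have been mixed. Levels of the overlapping genes are CPM of library totals without TMM, a scale that differs from that of the members. Their log2 changes are those of edgeR with TMM. FOSB overlaps ERCC1, a DNA repair gene with mean levels of 269 CPM in DMSO and 149 CPM after carfilzomib in H-1299, where ERCC1 fell by 0.75 on the log2 scale while FOSB rose. In H-929 ERCC1 also fell, by 0.47, while FOSB rose. JUNB overlaps HOOK2, whose mean level and change were close to those of JUNB in DLD-1, where HOOK2 went from 97.8 to 124 CPM (log2 0.31, adjusted p = 0.0333 by edgeR) and JUNB from 92.7 to 122 CPM (log2 0.39). HOOK2 also rose in RKO, by 0.32, where JUNB did not pass, and in H-929, by 0.43, where JUNB rose by 1.77. It fell in H-23, H-1299 and RPMI, where JUNB rose, and in CAPAN-2, where JUNB did not pass. FOSL2 overlaps the antisense gene FLJ31356, which passed the filter in 2 lines and was called in the direction of FOSL2 in both. Its mean went from 0.0568 to 2.84 CPM in H-929, where FOSL2 rose, and from 1.36 to 0.404 CPM in CAPAN-2, where FOSL2 fell. The part of mixed reads in the members' values was not tested.

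JUN and JUNB have a single exon. In H-929, where all members rose, 93 of 211 tested coding genes with 1 exon other than histone genes rose (44.1%, median log2 0.41), against 24.0% of coding genes with more exons (median -0.045). In RPMI the shares were 29.3% and 32.3%, and in H-1299 11.5% and 34.2%. This class was examined after the members' values were seen, and its part in the changes of JUN and JUNB was not tested.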

How the data were processed

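Counts per gene were analysed for all 48 libraries of the 16 groups. The authors deposited a matrix of raw read counts, with 33892 rows that each name a gene. The kit named in the labels is TruSeq for stranded total RNA, and the series design calls the assay mRNA sequencing. Per the submitters' processing notes the tools were bcl2fastq 2.19, FastQC, Trimmomatic, HISAT2 and DESeq2, with build hg38; the counting program, annotation and use of strand are not given in the sources used here. Totals of 9.12 M to 64.4 M counts set the counting error only, and counts without molecular identifiers need not be independent molecules. No pair of replicates looked like 1 library deposited again: over 48 pairs, the lowest chi-square was 3.47 per degree of freedom.

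Each line was fitted on its own 6 libraries with edgeR 4.0.16 in R 4.3.3 (quasi-likelihood F test, TMM, filterByExpr), with Benjamini-Hochberg adjustment over all genes tested and a threshold of 0.05. A fit of all 48 libraries with 16 groups and the trended dispersion gave averages, the test that lines differ and the response differences, and a fit of the 24 DMSO libraries gave baseline levels. The SE of a log2 change is its size divided by the square root of F. The fits were tested on simulated data. Exonic lengths, positions and overlaps came from GENCODE 29 by identifier, and promoters from RefSeq.

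The members and lists were chosen with earlier results of these data known. Named were the 9 members and at most 3 genes per list (those called in the same direction in the most lines, then by the larger average change). Also named were the 2 genes per member whose 8 log2 changes had the highest Pearson's r with its own. They were taken from genes tested in all lines with a mean of at least 50 counts. DUSP1, ZFP36 and HBEGF are in 2 lists. A gene that the rule chose among the AP-1 targets is not reported here. Alternatives were DESeq2's size factors, library totals, a filter on the mean (50 counts or more), no filter, DESeq2 1.42.0 (Wald test), a null fold change of 1.5, the fit of all libraries, a replicate block, limma 3.58.1 with lines as units, summed rows of shared identifiers, and leaving out single libraries, replicate numbers or lines. Genes with several rows (IER3, NRL, RPS6KA1, DUSP8, DUSP16, CLDN7, PTPRC) are uncertain. The single-exon genes and overlap partners were examined after the members' values were seen. Replicate numbers were checked as pairs and did not pair the samples.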

Additional observations from a re-analysis of the deposited data

Results flagged for a closer look

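The carfilzomib response differed between lines for these members, by edgeR's test of the difference of 2 log2 fold changes in the fit of all 48 libraries (adjusted p under 0.05 over all genes). RKO against DLD-1 differed in JUN (-0.58), FOSL1 (-0.70) and ATF3 (1.05). H-1299 against H-23 differed in JUN (0.67), JUND (-0.68), FOS (1.05), FOSB (1.49), FOSL1 (-1.69) and ATF3 (0.28). CAPAN-2 against PANC-1 differed in JUN (1.49), JUNB (-0.53), FOSL2 (-0.47), ATF3 (1.33) and EGR1 (-0.85). H-929 against RPMI differed in JUN (0.55), JUNB (0.92), JUND (0.72), FOS (1.30), FOSB (1.81) and ATF3 (-0.81).

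The mean response of the myeloma lines against that of the carcinoma lines differed in all 9 members: JUN (2.00), JUNB (0.90), JUND (1.57), FOS (-0.92), FOSB (0.83), FOSL1 (2.15), FOSL2 (0.71), ATF3 (2.07) and EGR1 (1.501). JUN and ATF3 are the members whose response differed in each of the 5 contrasts, but the JUN difference of the colon lines and of the myeloma lines and the ATF3 difference of the lung lines did not pass when some replicate numbers were left out. Groups of 3 libraries are too small for the test of single outlying samples.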

How the results depend on the processing

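For single members within a line, 546 of 573 values kept their direction and side of the threshold under another scaling, filter, test or fit, and 590 of 648 when a library or replicate number was left out. Against a null fold change of 1.5 the members called were 0 in RKO (1 against no change), 0 in DLD-1 (5), 2 in H-23 (8), 1 in PANC-1 (6), 2 in CAPAN-2 (7) and 5 in RPMI (9). The share of all genes passing that null is not given, so the counts cannot be set against it. The Wald test of DESeq2 called 3 in RKO, and as contrasts in the fit of all 48 libraries 3 were called in PANC-1. With lines as units limma called 0 of the 7 averages. Leaving out a replicate number gave 0 to 1 calls in RKO, 2 to 5 in DLD-1, 1 to 3 for RKO against DLD-1 and 3 to 5 for CAPAN-2 against PANC-1. Apart from the fit with lines as units, the share of all genes called under these alternatives is not given. These counts therefore cannot be set against it. The cause of these changes was not tested.

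Values that changed sign were mostly near 0 and not called. In RKO, JUND was 0.024 and FOSB 0.0096 under library totals. Over fits without a library or replicate number, RKO gave JUND -0.0988 to 0.046, FOS -0.70 to 0.057, FOSB -0.080 to 0.017 and FOSL2 -0.40 to 0.040, the highest value of each without replicate 1. JUND in DLD-1 ranged from -0.045 to 0.29. FOSL2 in H-23 was -0.017 under library totals, -0.011 with no filter and -0.013 in the fit of all libraries, and ranged from -0.013 to 0.023; in H-1299 it ranged from -0.22 to 0.0099. For H-929 against RPMI, FOSL2 was 0.0020 with DESeq2's size factors, 0.0068 with library totals and 0.012 with a mean of at least 50 counts, and ranged from -0.31 to 0.073 without a replicate number, and FOSL1 from -0.14 to 0.37. For RKO against DLD-1, FOS ranged from -0.25 to 0.41 and JUND from -0.30 to 0.068, and for H-1299 against H-23, EGR1 from -0.039 to 0.23. The average of JUND was -0.14 without H-929, which passed (adjusted p = 7.6e-04), and -0.043 without RPMI, and that of FOSL2 was -0.0051 without RPMI.

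Library totals moved the share of calls that were higher from 40.6% to 60.9% in RKO, 47.5% to 60.3% in DLD-1, 52.1% to 44.9% in H-23 and 48.8% to 38.9% in H-1299, where the median of all genes moved by -0.11. Under that scaling JUN (adjusted p = 0.0411) and FOSL2 (0.0391) were called in DLD-1, and JUNB and EGR1 were not called in H-1299. The replicate numbers share only a number: deviations of same-numbered libraries correlated between -0.063 and 0.049 in every line, and with the replicate block CAPAN-2 had 6 calls (JUND adjusted p = 0.0622), RKO against DLD-1 had 2 (JUN 0.0841) and H-1299 against H-23 had 5 (ATF3 0.0514). Each of the 3 DMSO libraries correlated best with its own number in H-23 and PANC-1. Other counts were the same with the block: 1 in RKO, 5 in DLD-1, 8 in H-23 and in H-1299, 6 in PANC-1, 9 in H-929 and in RPMI, 7 averages, and 5, 6 and 9 for the remaining contrasts. The share of all genes called with the block is not given. Low levels limit the precision of FOSB in H-1299 and FOS and EGR1 in PANC-1, at 0.53, 2.11 and 1.91 CPM in DMSO.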
